A study of Mus musculus with 6 samples.

Results

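The mitochondrial genome of the mouse encodes 22 tRNAs, and the 8 that lie on its minus strand are described here in the superior duodenum of male mice. They are mt-Tp, mt-Te, mt-Ts1, mt-Ty, mt-Tc, mt-Tn, mt-Ta and mt-Tq, which carry proline, glutamate, serine, tyrosine, cysteine, asparagine, alanine and glutamine. They were chosen by strand and found in the authors' table by Ensembl transcript identifier. The 8 are among 1630 short transcripts in that table, and all 8 had enough counts to be tested between genotypes. The 3 mutants were heterozygous males with the allele C57BL/6N-Polr3b<em7(IMPC)Tcp>/Tcp, called Polr3B-/+ here. They carry a frameshift insertion made with Cas9 in the gene for a subunit of RNA polymerase III (Pol III). The 3 controls were wild-type C57Bl/6N males. Per the paper's methods the controls came from matings of wild-type parents and the mutants from matings with a heterozygous parent, so they were not littermates, and all 6 mice were fasted overnight before the duodenum was taken. The age of these mice is not given in the sources used here. The allele is in the germ line, so every cell type of the mutants carries it. RNA of less than 200 nucleotides was selected and demethylated before sequencing, because methylated bases of tRNAs can stop reverse transcriptase. The values are Salmon's estimated counts per transcript.

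Mammalian mitochondria transcribe both strands of their circular genome into long RNAs with their own single-subunit polymerase, POLRMT, and not with Pol III. The tRNAs lie between the longer genes, and they are cut out of these RNAs at the 5′ end by the mitochondrial RNase P and at the 3′ end by the RNase Z ELAC2. The CCA end that holds the amino acid is added afterwards by TRNT1. The plus strand, in the sense of the gene annotation, gives the ribosomal RNAs, nearly all mRNAs and most of the tRNAs. The minus strand gives only the 8 tRNAs and the mRNA of mt-Nd6, a complex I subunit, and the rest of its RNA is degraded. Mitochondrial tRNAs serve only the ribosomes inside the organelle, which make core subunits of the respiratory chain, so an absorptive tissue such as the duodenal epithelium depends on them for oxidative phosphorylation.

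The 8 sequences are shown because the table identifies these RNAs by identifier alone, and because the anticodon, in capitals, shows which codons each of them reads. They are the transcripts of GENCODE M21, which is on GRCm38, written 5′ to 3′ as DNA, and are ordered as the minus-strand polymerase meets them after it leaves the control region. The identifier and its version matched the counts table for all 8.
mt-Tp: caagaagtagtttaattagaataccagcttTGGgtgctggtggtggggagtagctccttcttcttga
mt-Te: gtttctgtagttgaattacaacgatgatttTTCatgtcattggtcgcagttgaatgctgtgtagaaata
mt-Ts1: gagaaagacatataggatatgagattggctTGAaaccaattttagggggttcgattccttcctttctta
mt-Ty: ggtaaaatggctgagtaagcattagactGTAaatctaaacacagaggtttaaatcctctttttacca
mt-Tc: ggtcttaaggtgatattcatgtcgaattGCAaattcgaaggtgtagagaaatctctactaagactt
mt-Tn: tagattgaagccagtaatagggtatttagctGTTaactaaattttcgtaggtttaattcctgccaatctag
mt-Ta: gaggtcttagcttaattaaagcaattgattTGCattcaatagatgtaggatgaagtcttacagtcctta
mt-Tq: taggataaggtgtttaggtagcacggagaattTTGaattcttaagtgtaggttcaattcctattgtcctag

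In each of the 8 sequences, 1 stretch was found in which 5 base pairs close a loop of 7 bases, with T before the anticodon, a purine after it, and an anticodon that decodes the amino acid of the gene's name in the mitochondrial code. In mt-Ty, for example, the capitals mark GTA, the GUA anticodon of tyrosine. The anticodon begins with G in 3 members (mt-Ty, mt-Tc and mt-Tn), which read codons ending in a pyrimidine. It begins with T, which is U in the RNA, in the other 5. Of these, mt-Tq and mt-Te read codons ending in a purine, and mt-Ta, mt-Ts1 and mt-Tp each read a whole family of synonymous codons. The members are between 66 and 71 bases long. They hold from 17.9% to 29.9% G, with a median of 22.95%, against 7.1% to 21.3% and a median of 15.7% in the 14 tRNAs of the plus strand, and less A, with medians of 29.3% and 37.3%. No other transcript of the table whose sequence is in GENCODE M21 resembled a member in a blastn-short search (expect value under 0.01), so no copy was found between which reads could have been divided. The 313 Ensembl rows and 182 RNAcentral rows without a sequence there were not searched.

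The members are spread unevenly over the genome. On GRCm38, mt-Ta (chrM:5018-5086), mt-Tn (chrM:5089-5159), mt-Tc (chrM:5192-5257) and mt-Ty (chrM:5260-5326) stand side by side just before mt-Co1. Only 2 bases part mt-Ta from mt-Tn and mt-Tc from mt-Ty, whereas 32 bases, where replication of the light strand starts, lie between mt-Tn and mt-Tc. The other 4 stand apart from each other. mt-Tp (chrM:15356-15422) abuts the plus-strand mt-Tt with 0 bases between them, and mt-Te (chrM:14071-14139) is just 5′ of mt-Nd6 on the same strand. mt-Ts1 (chrM:6870-6938) overlaps the last 3 bases of mt-Co1 on the opposite strand, and mt-Tq (chrM:3772-3842) overlaps 3 bases of mt-Ti in the same way. The sources used here do not state that strand was used in counting, so reads from RNA copied from the opposite strand of a member cannot be told apart from its own.

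The counts of the short transcripts summed to between 2114055 and 6037849 per mouse. A single transcript, ENSMUST00000240338.1, held from 16.7% to 47.7% of the counts of a mouse. Its share was between 45.1% and 47.7% in heterozygous males 2 and 3 and wild type replicate 1, the 3 mice with the smallest sums, and at most 28.5% in the other 3. The heterozygous males are numbered by their columns in the table, which do not name the genotype and were taken to be the mutants because the other 3 are named wild type. No pair of libraries looked like repeats of the same one, as the chi-square of their counts was at least 212 per degree of freedom within each genotype. All 6 were kept as replicates, and p-values measure the spread between these libraries. Of the 9 microRNA precursors listed as marks of the intestinal epithelium, such as Mir192, Mir194-1 and Mir215, all 9 were in the table, and 0 of the 3 of pancreas, 0 of the 1 of liver and 0 of the 5 of striated muscle. The precursors were rare in RNA of this kind, with a sum of 3.31 to 18.4 for the epithelial list in counts-per-million units (CPM).

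Together, the 8 tRNAs held 4.77%, 3.45% and 3.05% of the counts in Polr3B-/+ males 1 to 3, against 3.12%, 10.4% and 7.25% for wild type replicates 1 to 3. The genotypes overlapped, since wild type replicate 1 fell among the mutants. The 95% Wilson intervals were at most 0.0561 percentage points wide and cover counting error only, so the mice differed by more than counting error. After TMM scaling, the sum was 36371 ± 6838 CPM in the mutants and 73263 ± 41445 CPM in wild type (SD, n = 3 each), and the mean of its log2 was lower by 0.87 in the mutants (-0.87). The wild-type mice ranged from 36694 to 118281 CPM, and without wild type replicate 2 the log2 difference was -0.44. The microRNA precursors of several cell types were also highest in wild type replicates 2 and 3, followed by heterozygous male 1. Those of the intestinal epithelium summed to 11.0, 5.0 and 7.0 CPM in Polr3B-/+ males 1 to 3, against 3.31, 18.4 and 13.7 CPM for wild type replicates 1 to 3. Those of smooth muscle and stroma (2 of 3 in the table) summed to 1.92, 1.67 and 0.7 CPM in the mutants and 0.946, 4.61 and 3.15 CPM in wild type, which is the order of the mice in the share of the tRNAs. The list of blood and immune cells (3 of 7) gave 2.16, 1.67 and 0.35 CPM in the mutants and 0, 3.73 and 2.48 CPM in wild type, and that of enteroendocrine and islet cells (2 of 3), which did not follow this order, 0 to 2.5 and 0 to 0.994 CPM. These sums were at most 18.4 CPM for the epithelial list and at most 4.61 CPM for the others. All are few counts per mouse, so their order among the mice is uncertain. The part of these differences, or of the abundant transcript, in the levels of the tRNAs was not tested. In whole tissue, fewer cells of a type and less RNA per cell cannot be told apart.

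Per base of length, the members did not have equal counts, and their order was the same in both genotypes. A count reflects how well a tRNA was copied and sequenced as well as its amount, and these cannot be told apart here. mt-Tp stood at the top with a geometric mean over the 6 males of 167998 CPM per kilobase, followed by mt-Ta with 139411, mt-Te with 105976, mt-Tn with 88053, mt-Tq with 75840 and mt-Tc with 70678. mt-Ts1 had 35773 and mt-Ty, the lowest, 13592 CPM per kilobase. Only mt-Tn over mt-Tq, mt-Tc over mt-Ts1 and mt-Ts1 over mt-Ty held in 6 of 6 mice. The steps from mt-Tp to mt-Ta, from mt-Ta to mt-Te and from mt-Te to mt-Tn each held in 5 of 6, and mt-Tq was above mt-Tc in 3 of 6, so these neighbours were not separated beyond the spread. The ratio of mt-Ts1 to mt-Ty, both per length, ran from 2.12 to 3.32. The range from the highest to the lowest member was 12.4-fold over the geometric means. Within a mouse it was 9.3-fold, 10.8-fold and 9.61-fold in wild type and 20.0-fold and 18.8-fold in heterozygous males 1 and 2. It was narrower in heterozygous male 3 but still above that of each wild type.

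**Figure D1:**
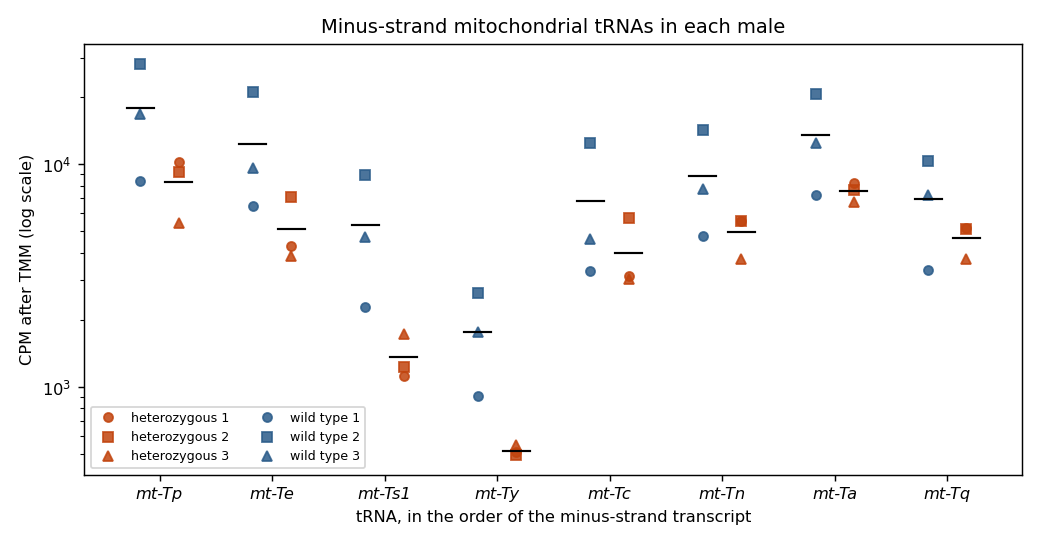
CPM after TMM (log axis) of the 8 minus-strand mitochondrial tRNAs in each of the 3 heterozygous (orange) and 3 wild-type (blue) males, with black bars for the group means and a symbol for each replicate number, which does not pair mice. The genotypes are apart only for mt-Ts1 and mt-Ty, and wild type replicate 2 is the highest and replicate 1 the lowest wild type for all 8.

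All 8 members had a lower fitted mean in Polr3B-/+ males than in wild type, with log2 fold changes from -1.97 to -0.57 and a median of -0.97. Over all 560 tested transcripts the median was -0.05, and 310 of them (55.4%) were lower. None of the 8 passed 10% FDR, as 0 of the 560 did (0%; quasi-likelihood test of edgeR, Benjamini-Hochberg adjusted over all tested transcripts, adjusted p = 0.999 for each member). An unadjusted p under 0.05 was found for 3 of the 8, mt-Ty, mt-Ts1 and mt-Te, all lower in the mutant, where 17 of the 560 transcripts (3.04%) were lower at that level. In 2 of the 8, mt-Ty and mt-Ts1, every mutant was below every wild-type male, which was so for 23 of the 560 (4.11%). DESeq2, which the authors used, called mt-Ty alone of the 8 when given all transcripts, with 1 transcript in 1614 (0.062%) called lower. Given the transcripts that pass the filter on low counts, a setting chosen after seeing the data, it called mt-Ty and mt-Ts1, the only 2 of 557 transcripts (0.359%) called lower. Transcripts that DESeq2 called higher in the mutant were not counted. With limma-voom, 0 members were called at 10% FDR. The unadjusted p was under 0.05 for 2, where 11 of the 560 transcripts (1.96%) were lower at that level.

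Other scalings moved all transcripts together. With library totals alone the median of all tested transcripts was 0.14, with 39.5% of them lower in the mutant, and with totals that leave out ENSMUST00000240338.1 it was 0.23, with 32.1% lower. All 8 members stayed lower under both, and the difference of their median from that of all transcripts was -0.91 and -0.89 on the log2 scale, against -0.92 with TMM. A scaling shifts all transcripts nearly alike, so it could hardly change this difference, and its constancy is no support. The difference did depend on the mice, at -0.50 without wild type replicate 2 and -1.17 without replicate 1. With the term for library size described below it was -0.59.

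mt-Ty and mt-Ts1 differed most between the genotypes. mt-Ty, the tRNA for tyrosine, had 511, 492 and 546 CPM in the Polr3B-/+ males, against 905, 2620 and 1750 CPM in wild type replicates 1, 2 and 3. The SD was 5.29% of the mean in the mutants and 48.8% in wild type, and the groups did not overlap. The log2 fold change was -1.77 (standard error 0.43), for which edgeR's quasi-likelihood test gave an unadjusted p of 0.00473 and, adjusted, 0.999. mt-Ts1, the serine tRNA that reads the UCN codons, had 1116, 1227 and 1730 CPM in the mutants and 2272, 8951 and 4698 CPM in wild type. Here too every mutant was below every wild-type male, and the log2 fold change was -1.97 (standard error 0.54, unadjusted p = 0.00857 and adjusted p = 0.999 from edgeR). With DESeq2 on all transcripts, the log2 fold changes were -1.67 for mt-Ty (adjusted p = 0.0616) and -1.87 for mt-Ts1 (adjusted p = 0.206). On the filtered transcripts the adjusted p from DESeq2 was 0.027 for mt-Ty and 0.0679 for mt-Ts1. A term for library size in edgeR's model, also chosen after seeing the data, set the larger libraries against the smaller. The larger were heterozygous male 1 and wild type replicates 2 and 3, so the term is partly confounded with genotype. With it, the unadjusted p was 0.0219 for mt-Ty and 0.0516 for mt-Ts1.

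mt-Te and mt-Tp are the nearest members to the start of the minus-strand transcript. mt-Te, the glutamate tRNA, had 4279, 7115 and 3855 CPM in the Polr3B-/+ males, against 6462, 20930 and 9629 CPM in wild type, so that heterozygous male 2 was above wild type replicate 1. Its log2 fold change of -1.28 (standard error 0.54) had an unadjusted p of 0.0484 in edgeR's quasi-likelihood test, and between 0.0519 and 0.0721 under the 5 other scalings. For mt-Tp, the proline tRNA and the highest member per length, 10198, 9234 and 5405 CPM were found in the mutants and 8411, 28228 and 16827 CPM in wild type. A pair of mutants exceeded wild type replicate 1, and the log2 fold change of -1.11 (standard error 0.53) had an unadjusted p of 0.076 in the same test.

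The 3 neighbours of mt-Ty in the cluster before mt-Co1 overlapped between the genotypes. mt-Tc, for cysteine, had 3129, 5717 and 3039 CPM in the Polr3B-/+ males, against 3307, 12449 and 4603 CPM in wild type. Its log2 fold change was -0.78 (standard error 0.58), and it rested on wild type replicate 2, without which it was 0.00. mt-Tn, for asparagine, had 5563, 5550 and 3752 CPM in the mutants and 4738, 14145 and 7692 CPM in wild type, a log2 fold change of -0.84 (standard error 0.48). mt-Ta, for alanine, had 8252, 7650 and 6746 CPM in the mutants and 7271, 20687 and 12369 CPM in wild type, a log2 fold change of -0.83 (standard error 0.45). Wild type replicate 1 was below 2 of the 3 mutants for both mt-Tn and mt-Ta, and for mt-Tc it lay between the lower mutants and the highest. mt-Tq, for glutamine, is the last member on the minus-strand transcript and had the smallest difference, with 5175, 5107 and 3724 CPM in the mutants and 3328, 10271 and 7246 CPM in wild type. Its log2 fold change was -0.57 (standard error 0.47), and wild type replicate 1 was below all 3 mutants. The unadjusted p of these 4 was between 0.11 and 0.261 in edgeR's quasi-likelihood test.

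Wild type replicate 2 was the highest and replicate 1 the lowest of the wild-type mice for all 8 members. Replicate 2 exceeded replicate 1 by between 2.85-fold, for mt-Ta, and 3.94-fold, for mt-Ts1. Among the Polr3B-/+ males, the highest exceeded the lowest by 1.11-fold for mt-Ty, the smallest ratio, and by 1.89-fold for mt-Tp, the largest. Without wild type replicate 2, the log2 fold changes of the 8 ran from -1.36 to 0.00, with a median of -0.49, and mt-Ty and mt-Ts1 were each at -1.36 and remained the 2 members without overlap, where 7.13% of 575 tested transcripts were parted in the same direction. Without wild type replicate 1, they ran from -2.34 to -0.92, with a median of -1.30. Then 7 of the 8 did not overlap, mt-Tc being the exception, where 16.2% of 593 tested transcripts were parted in the same direction, and 6 had an unadjusted p under 0.05 in edgeR's quasi-likelihood test, where 5.56% of the 593 were lower at that level. The smallest adjusted p of a member was then 0.154, for mt-Ty. Without heterozygous male 2, mt-Tc and mt-Te joined mt-Ty and mt-Ts1 in not overlapping, where 7.68% of 612 tested transcripts were parted in the same direction.

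**Figure D2:**
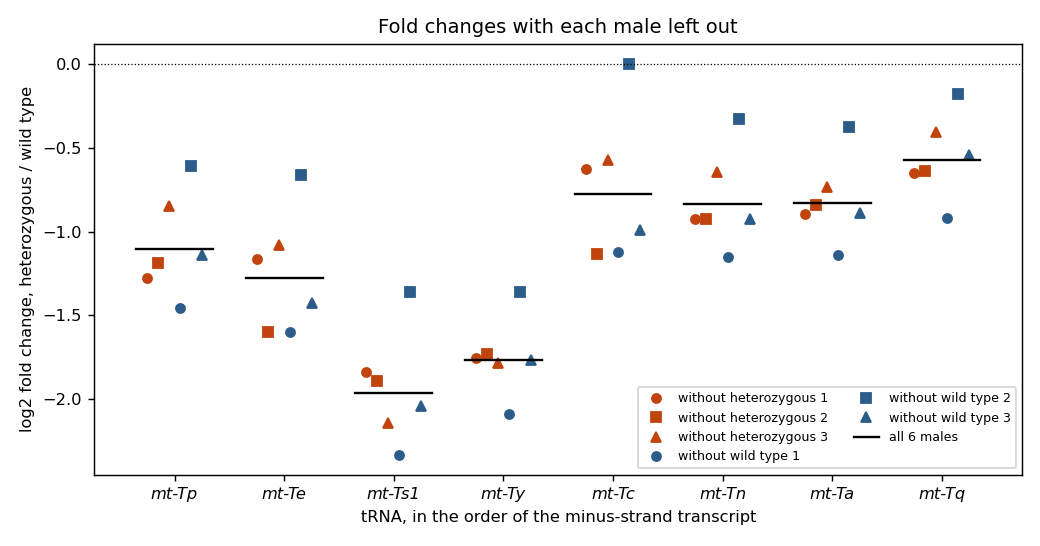
Log2 fold change (heterozygous over wild type) of each minus-strand tRNA from edgeR with each male left out in turn, in orange where a heterozygous male and in blue where a wild type was left out; black lines give the fit of all 6 males. The values without wild type replicate 2 (blue squares) are the closest to 0 for each of the 8, at 0.00 for mt-Tc, and mt-Ty and mt-Ts1 stay at or below -1.36.

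Within the 8, composition was compared as each member's share of their summed counts, which no scaling of the libraries can change. mt-Ts1 made up 2.92%, 2.91% and 6.01% in the Polr3B-/+ males, against 6.19%, 7.57% and 7.25% in wild type. mt-Ty made up 1.34%, 1.17% and 1.9% in the mutants and 2.47%, 2.21% and 2.7% in wild type. For both shares all 3 mutants lay below all 3 wild types, although heterozygous male 3 was close to the wild-type mice for mt-Ts1. In the opposite direction, mt-Tq made up 13.5%, 12.1% and 12.9% in the mutants and 9.07%, 8.68% and 11.2% in wild type, and mt-Tn 13.0% to 14.6% against 11.9% to 12.9%, each without overlap. The shares of mt-Tp, from 18.8% to 26.7%, of mt-Ta, from 17.5% to 23.4%, of mt-Te, from 11.2% to 17.7%, and of mt-Tc, from 7.1% to 13.6%, overlapped. The shares of a whole are not independent of each other, and the smallest p that an exact permutation test of 3 mice against 3 can give is 0.1.

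**Figure D3:**
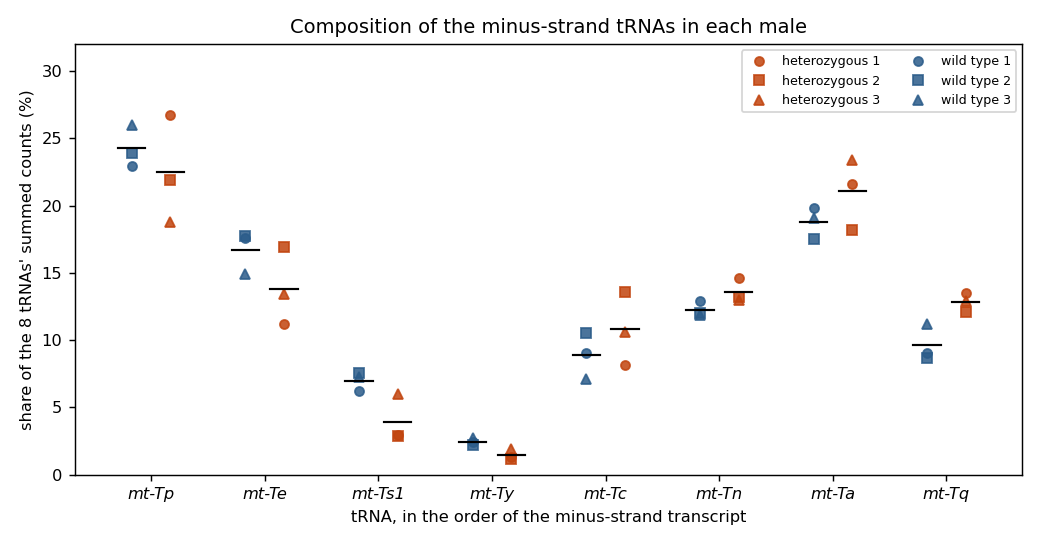
Share (%) of each minus-strand tRNA in the summed counts of the 8, in each heterozygous (orange) and wild-type (blue) male, with black bars for the group means. The shares of mt-Ts1 and mt-Ty are lower, and those of mt-Tn and mt-Tq higher, in all 3 mutants than in all 3 wild types.

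The 4 adjacent tRNAs come from the same stretch of the precursor, and their ratios were compared in each mouse. A ratio of counts also carries how well each of its tRNAs was copied and sequenced. The ratio of mt-Ty to mt-Tc, both per length, was 0.161, 0.0849 and 0.177 in the Polr3B-/+ males, against 0.27, 0.207 and 0.375 in wild type, without overlap. These 2 sequences lie 2 bases apart. The ratio of mt-Tc to mt-Tn, across the 32 bases of the replication origin, ran from 0.605 to 1.11 in the mutants and from 0.644 to 0.947 in wild type. That of mt-Tn to mt-Ta ran from 0.54 to 0.705 and from 0.604 to 0.665. The latter 2 ratios overlapped between the genotypes, and of the 3 steps in the cluster the step to mt-Ty alone was parted. That ratio uses again the counts of mt-Ty given above. How often ratios of other pairs of transcripts are parted was not computed, and the cause of the difference was not tested.

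Of the members set against their nearest tRNAs on the opposite strand, only mt-Tq had ratios that did not overlap between the genotypes. The ratio of mt-Tq to mt-Ti, the isoleucine tRNA that it overlaps, was 0.43, 0.458 and 0.466 in the mutants and 0.293, 0.319 and 0.415 in wild type. The ratio of mt-Tq to mt-Tm, the methionine tRNA on its other side, was 3.6, 4.49 and 3.83 in the mutants and 2.17, 3.51 and 3.19 in wild type. Both were higher in every mutant, but by small gaps, from 0.415 to 0.43 and from 3.51 to 3.6. The 2 ratios share the counts of mt-Tq, so they are not separate results. How often ratios of other pairs of transcripts are parted was not computed, so this is not shown to be a trait of mt-Tq. The ratio of mt-Ts1 to mt-Td, the aspartate tRNA, ran from 0.164 to 0.477 in the mutants and from 0.321 to 0.388 in wild type. The ratio of mt-Ta to mt-Tw, for tryptophan, ran from 10.9 to 23.2 and from 9.39 to 15.4, and that of mt-Tp to mt-Tt, for threonine, from 1.69 to 1.83 and from 1.46 to 1.74. These last 3 overlapped.

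The tRNAs of the plus strand were also lower in the Polr3B-/+ males, so a lower fitted mean was not particular to the minus strand. Of those 14, all 14 had a log2 fold change under 0, with a median of -1.09 and a range from -1.93, for the lysine tRNA mt-Tk, to -0.04, for the glycine tRNA mt-Tg. An unadjusted p under 0.05 was found for 8 of the 14, beside 3 of the 8 on the minus strand, and 6 of the 14 did not overlap between the genotypes, beside 2 of the 8. Over all 560 tested transcripts, 3.04% were lower at that p and 4.11% were parted in the same direction. The 6 plus-strand tRNAs upstream of mt-Co1 had a median of -1.0 and the 8 downstream of it -1.29. Those with the smallest p were mt-Tk, mt-Ts2 and mt-Tl2 downstream (-1.93, -1.82 and -1.38) and mt-Tw, mt-Tf and mt-Tm upstream (-1.16, -1.61 and -0.92). The adjusted p was 0.999 for each in edgeR's quasi-likelihood test. The 2 mitochondrial mRNAs short enough to be in the table had fold changes above 0 without passing the test. The log2 fold change was 0.78 for mt-Atp8 (standard error 0.48) and 0.95 for mt-Nd4l (standard error 0.70), at 211 CPM or fewer in every mouse. At 204 and 297 bases, both are longer than the 200 nucleotides below which RNA was selected. Their counts therefore cannot be read as levels of the whole mRNAs. The third mRNA listed, mt-Nd3, is longer than the limit of 300 bases.

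**Figure D4:**
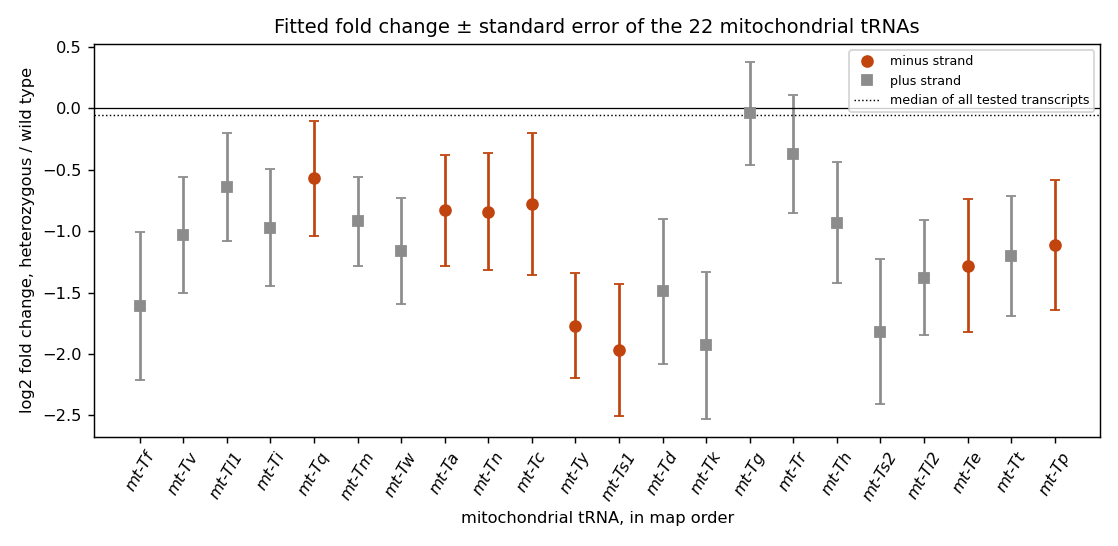
Log2 fold change (heterozygous over wild type, edgeR) with its standard error for the 22 mitochondrial tRNAs in map order, minus strand in orange circles and plus strand in grey squares. All 22 are below 0, all but mt-Tg are below the dotted median of all tested transcripts (-0.05), and the ranges of both strands overlap (-1.97 to -0.57 and -1.93 to -0.04).

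The counts of the 8 members divided by those of the 14 plus-strand tRNAs gave 0.66, 0.679 and 0.75 in the Polr3B-/+ males, against 0.486, 0.568 and 0.591 in wild type. The minus strand thus held 41.0 ± 1.67% of all mitochondrial tRNA counts in the mutants and 35.4 ± 2.36% in wild type (SD, n = 3 each), and the genotypes did not overlap. The log2 difference of this ratio between the genotypes was 0.35, and it was 0.42 without the most abundant plus-strand tRNA and 0.38 without the most abundant member. When each tRNA was given the same weight, by taking the mean log2 CPM of each strand, the difference was 0.04, so that whether the strands differed depended on this weighting.

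Over the 6 males, the 5 other transcripts whose levels followed the mean of the 8 members most closely were mt-Ti, mt-Tt, mt-Th, mt-Tl2 and mt-Td, all tRNAs of the plus strand. Likeness was measured as the mean absolute difference of log2 CPM, each centred on its own mean, and was between 0.122 for mt-Ti and 0.202 for mt-Td, with a median of 0.655 over the 552 other tested transcripts. The members themselves ranged from 0.153, for mt-Ta, to 0.45, for mt-Ts1, so mt-Ti and mt-Tt were closer to the mean of the minus strand than any of its own members. The nearest transcript from outside the mitochondrial genome, named by its rank after the values were seen, was the small nucleolar RNA Gm24357, the sixth in this order, at 0.216. All 6 points of these profiles come from the same libraries, whose scaling they share.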

How the data were processed

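Per the paper's methods, the authors trimmed paired-end reads with Cutadapt, quantified them with Salmon on an index of all GRCm39 RNAs, and kept transcripts shorter than 300 bases. The deposited values are Salmon's estimated counts, whole numbers without normalization. Columns were assigned to genotypes as described above. Names, positions and sequences came from GENCODE M21 (GRCm38), joined by transcript identifier without version. The members and lists were chosen with earlier results of these data known.

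All rows entered edgeR 4.0.16 (R 4.3.3): filterByExpr with a minimum count of 10, TMM scaling, dispersions from estimateDisp, and glmQLFTest between the genotypes on a glmQLFit model (legacy = FALSE) without covariates. P values were adjusted over the 560 tested transcripts at 10% FDR. Standard errors were obtained as the log2 fold change over the root of the F statistic. DESeq2 1.42.0, limma 3.58.1, other scalings, no filter on low counts, robust empirical Bayes and each mouse left out were alternatives. Added after seeing the data were DESeq2 on the filtered transcripts and a term in edgeR's model for larger or smaller library. Log2 CPM used a prior count of 2. The code of the fits was tried on simulated counts with independent transcripts and balanced changes, which cannot show how the fits behave on these libraries. All 8 members are named, with the 5 transcripts nearest to their mean, up to 3 with the smallest p of each other mitochondrial list, and the plus-strand neighbours.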

Additional observations from a re-analysis of the deposited data

How the results depend on the processing

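Under 17 alternatives per tRNA, 135 of 136 fold changes of the members kept their direction, which was lower in the mutant. Of all tested transcripts, 32.1% to 59.9% were lower in these fits. The alternatives refit the same libraries, and the members varied together, so the 136 values are not separate checks. The exception was mt-Tc without wild type replicate 2, at 0.00, and with each mouse left out mt-Tc ran from -1.13 to 0.00. The number of members past 10% FDR was 0 with edgeR's quasi-likelihood test, 1 with DESeq2 on all transcripts and 2 with DESeq2 on the filtered transcripts. Of all tested transcripts, 0%, 0.062% and 0.359% were called there, counting for DESeq2 only those lower in the mutant. The number of members past 10% FDR was from 0 to 0 with each mouse left out. The number with an unadjusted p under 0.05 was 3 with edgeR and all mice, where 3.04% of all tested transcripts were lower at that level. It was 1 with the term for library size (1.79%) and from 2 to 6 with each mouse left out (1.15% to 5.56%), 6 being without wild type replicate 1. The number without overlap ran from 2 to 7 in those fits, in which 6.6% to 16.2% of all tested transcripts were parted in the same direction, against 4.11% with all mice. It was 7 without wild type replicate 1 (16.2%) and 4 without heterozygous male 2 (7.68%). The median log2 fold change, -0.97, lay between -0.60 and -0.97 under the other settings, at -0.60 with the term for library size, and from -1.30 to -0.49 with each mouse left out. The summed level ran from -1.30 to -0.44, without wild type replicates 1 and 2. The log2 ratio of the strands, 0.35, was 0.04 with equal weights and from 0.26 to 0.40 with each mouse left out. The cause of these changes was not tested. No paired analysis was possible because the sample titles give replicate numbers to the wild-type mice alone, and the numbers of the heterozygous columns are not tied to the titled animals. Each member had at least 970 counts in every mouse, so that counting error was small beside the spread between the mice.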
